A study of Rattus norvegicus with 16 samples.

Results

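The genes described here make cholesterol and fatty acids or regulate that synthesis: 31 of the 32883 genes listed in the expression table, chosen by name for their role in the pathway. Earlier results of these data were known when they were chosen. They comprise 7 enzymes of the mevalonate steps, 11 enzymes of the squalene and sterol ring steps, 6 regulators or transfer proteins, and 7 enzymes of fatty acid synthesis. The study asked what NAT10, the enzyme that writes N4-acetylcytidine (ac4C) into RNA, does in vascular smooth muscle cells. Primary rat aortic smooth muscle cells were grown in medium with 20% fetal bovine serum. For 48 h they received an adenovirus carrying shRNA against NAT10 (knockdown, genotype label NAT10 knockdown) or a control adenovirus (control, genotype label wild type). Both arms thus carried virus, and no arm without virus was among the RNA-seq libraries. RNA-seq libraries were available for 3 control and 3 knockdown samples, with an ac4C immunoprecipitation from each of the same 6 labels, and NAT10 immunoprecipitations (RIP) from 3 samples of wild-type cells labelled as untreated. A non-precipitated RIP control was not analysed here. The labels do not say that replicates came from separate animals, so the p-values rest on sample-to-sample spread that can be technical in part.

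Cholesterol is built from acetyl-CoA through mevalonate, farnesyl diphosphate and squalene, and the first sterol, lanosterol, is then trimmed and reduced to cholesterol. The transcription factors of the SREBP family, encoded by Srebf1 and Srebf2, are held in the endoplasmic reticulum. When sterol is scarce the escort protein SCAP carries them to the Golgi, where proteases release the active part. INSIG proteins retain SCAP when sterol is plentiful, and Insig1 is itself a target gene. SREBP2 acts mainly on sterol genes and SREBP1 mainly on fatty acid genes, and both work with factors that bind CCAAT and GC boxes near the start site. Serum supplies cells with lipoprotein cholesterol.

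To show what the start regions of these genes look like, the 250 bases upstream of the RefSeq start site are given for the 3 members that were higher in knockdown at an unadjusted p under 0.05 (Sc5d, Hsd17b7 and Msmo1), for Fads2, the 1 that was lower, and for the feedback gene Insig1. They come from the RefSeq promoter table of the assembly GRCr8 and read 5′ to 3′ along the gene. Capitals mark a CCAAT box, written CCAAT on the strand of the gene or ATTGG where it lies on the other strand. The regions are chr8:51538278-51538527 on the minus strand for Sc5d, chr13:84722755-84723004 on the minus strand for Hsd17b7, chr16:29746863-29747112 on the plus strand for Msmo1, chr4:8057770-8058019 on the minus strand for Insig1 and chr1:216172034-216172283 on the minus strand for Fads2.
Sc5d: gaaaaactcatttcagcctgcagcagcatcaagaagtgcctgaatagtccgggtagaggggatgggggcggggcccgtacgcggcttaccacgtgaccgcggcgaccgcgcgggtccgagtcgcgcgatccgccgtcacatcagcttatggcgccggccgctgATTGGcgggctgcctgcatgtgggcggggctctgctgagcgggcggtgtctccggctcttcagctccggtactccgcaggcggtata
Hsd17b7: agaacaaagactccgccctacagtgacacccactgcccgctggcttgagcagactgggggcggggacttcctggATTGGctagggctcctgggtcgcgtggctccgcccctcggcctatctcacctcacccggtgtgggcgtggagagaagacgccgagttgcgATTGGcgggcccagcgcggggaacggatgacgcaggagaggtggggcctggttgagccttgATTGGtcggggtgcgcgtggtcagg
Msmo1: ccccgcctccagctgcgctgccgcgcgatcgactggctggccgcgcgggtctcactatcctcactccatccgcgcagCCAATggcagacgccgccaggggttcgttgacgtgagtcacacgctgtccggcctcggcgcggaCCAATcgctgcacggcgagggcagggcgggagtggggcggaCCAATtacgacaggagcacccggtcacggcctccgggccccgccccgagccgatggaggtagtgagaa
Insig1: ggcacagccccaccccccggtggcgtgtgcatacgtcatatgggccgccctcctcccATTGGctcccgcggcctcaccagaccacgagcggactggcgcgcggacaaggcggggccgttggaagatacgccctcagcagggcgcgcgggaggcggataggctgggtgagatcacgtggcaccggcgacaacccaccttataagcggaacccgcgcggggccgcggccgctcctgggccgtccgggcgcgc
Fads2: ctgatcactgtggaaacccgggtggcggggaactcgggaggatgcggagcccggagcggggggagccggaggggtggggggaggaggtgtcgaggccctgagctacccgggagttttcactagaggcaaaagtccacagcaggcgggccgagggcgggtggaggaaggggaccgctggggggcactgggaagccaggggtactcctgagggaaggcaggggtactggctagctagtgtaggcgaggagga
Hsd17b7 and Msmo1 each held 3 CCAAT boxes in this window, Sc5d and Insig1 held 1, and Fads2 held 0. Acat2, Cyp51, Dhcr7 and Scd also held 0, with log2 differences (knockdown minus control) of 0.37, 0.66, 0.40 and 0.25. Scap, at -0.07, held 0 too. Mvk (-0.04) and Nsdhl (-0.07) held the most, 5 each. Whether boxes go with the direction of change was not tested.

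Promoter entries matched 24 of the 31 members by symbol (windows of 250 bases before to 50 bases after the start; Srebf1 had a second entry, giving 25 windows), and the other members are Fasn, Sqle, Elovl6, Pmvk, Fdft1, Acaca and Stard4. A CCAAT box on either strand was found for 18 of the 24 (75.0%). The same letters were present in 37.5% of all 33469 promoters and in 37.6% of the 9816 promoters of genes tested here. GGGCGG, the GC box bound by SP1, was found for 20 of the 24 (83.3%), against 33.1% of all promoters and 63.4% of those of tested genes. The core TCACNCCAC of the sterol regulatory element, searched on both strands, was in 0 of 24 members, 1.12% of all promoters and 1.08% of those of tested genes. Its shorter part CACNCCA was found for 7 of the 24 (29.2%): Acat2, Tm7sf2, Msmo1, Ebp, Srebf2, Insig1 and Fads1, against 17.2% of all promoters and 15.7% of those of tested genes. The members' windows had a median G and C content of 65.0%, and all promoters one of 51.7%. These are letter matches and not binding sites, and the part of base composition in the shares was not tested.

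The RNA-seq libraries held between 6417941 and 12065991 fragments in genes, recovered from the deposited FPKM (fragments per kilobase of transcript, divided by a library total). All values below are FPKM, a scale per length. Nat10 itself (ENSRNOG00000008663) stood at 7.69, 9.22 and 9.95 in control and 4.38, 3.68 and 4.58 in knockdown, with no overlap, a log2 difference of -0.93 (SE 0.19) and a limma adjusted p of 0.227 (0.0399 to 0.797 over 17 alternatives). Knockdown library 2 had the lowest share of fragments on protein-coding genes, 94.6% against 96.2% to 97.6% in the other 5, and the lowest fitted quality weight, 0.235. Control libraries 2 and 3 were the most alike of 15 pairs, their fragment counts giving a median chi-square of 0.759 over genes, where sampling alone gives 0.455 and the other 14 pairs gave 3.56 to 11.7. They were kept as separate samples. That they differed by more than sampling noise does not show that they are independent replicates. In the smooth muscle marker list, 7 of 8 genes were at 1 FPKM or more (Des, desmin, was not), and the summed list stood at 4190 to 5737 in control and 682 to 3295 in knockdown. The adipocyte list summed to 0.411 to 1.43 in control and 0.625 to 1.15 in knockdown (0 of 8 at 1 FPKM, Lep at 0). For endothelium the sums were 0.380 to 0.724 and 0.640 to 0.973 (0 of the 5 found, Cldn5 at 0). Pecam1, the other of 6 endothelial markers listed, was not found by name. Sums were 8.56 to 12.03 and 10.1 to 19.3 for leukocytes (2 of 6, Cd3e at 0). For adventitial fibroblasts they were 86.8 to 94.4 and 30.3 to 58.2 (5 of 6, Ly6c at 0). In bulk RNA, fewer cells of a type and less RNA per cell cannot be told apart, and the part of these shifts in the results below was not tested.

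Of the 31 members, 29 had a mean of at least 1 FPKM and were tested; Tm7sf2, a sterol reductase, and Elovl6, a fatty acid elongase, were below it. No member passed an adjusted p of 0.05 in the limma fit, and neither did any of the 13450 genes tested (0%). At an unadjusted p under 0.05, 3 members stood higher in knockdown (Sc5d, Hsd17b7 and Msmo1) where 5.53% of all genes did, and 1 stood lower (Fads2) where 6.95% did. The log2 difference was above 0 for 20 members and below 0 for 9, with a median of 0.23, while 48.6% of all genes were above 0 and their median was -0.01. The members' median was 0.10 without knockdown library 2, 0.079 without control library 1 as well, and 0.35 without knockdown library 3. When each library was instead scaled to its total of recovered fragments, 26 of 29 members and 61.8% of all genes were above 0. Higher values were thus more frequent among members than among all genes on both scales, and no single member passed the adjusted test on either.

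The members were not shifted alike in the 3 knockdown libraries. In knockdown library 1, 21 of the 29 stood above all 3 controls (72.4%, against 34.1% of all genes), in library 2 it was 17 (58.6%, against 36.3%), and in library 3 it was 6 (20.7%, against 31.1%). Below all 3 controls were 3, 5 and 9 members (10.3%, 17.2% and 31.03%, against 34.7%, 37.7% and 32.1% of all genes), so that in library 3 the share was near that of all genes. The median member lay 0.30, 0.43 and -0.09 on the log2 scale from the control mean in the 3 knockdown libraries, and -0.11, 0.10 and 0.04 from it in the controls. Knockdown library 2 held the highest value of all 6 for 15 members (51.7%), where it did so for 26.3% of all genes. Without knockdown library 3, 16 members had groups that did not overlap in the higher direction, where 18.4% of all genes did, and 8 were higher at an unadjusted p under 0.05, where 8.52% of all genes were. With all libraries those counts were 2 and 3. Leaving out any library can only keep or raise the first count. The second was 1 without knockdown library 1 (4.17% of all genes) and 1 without control library 3 (2.65%).

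**Figure D1:**
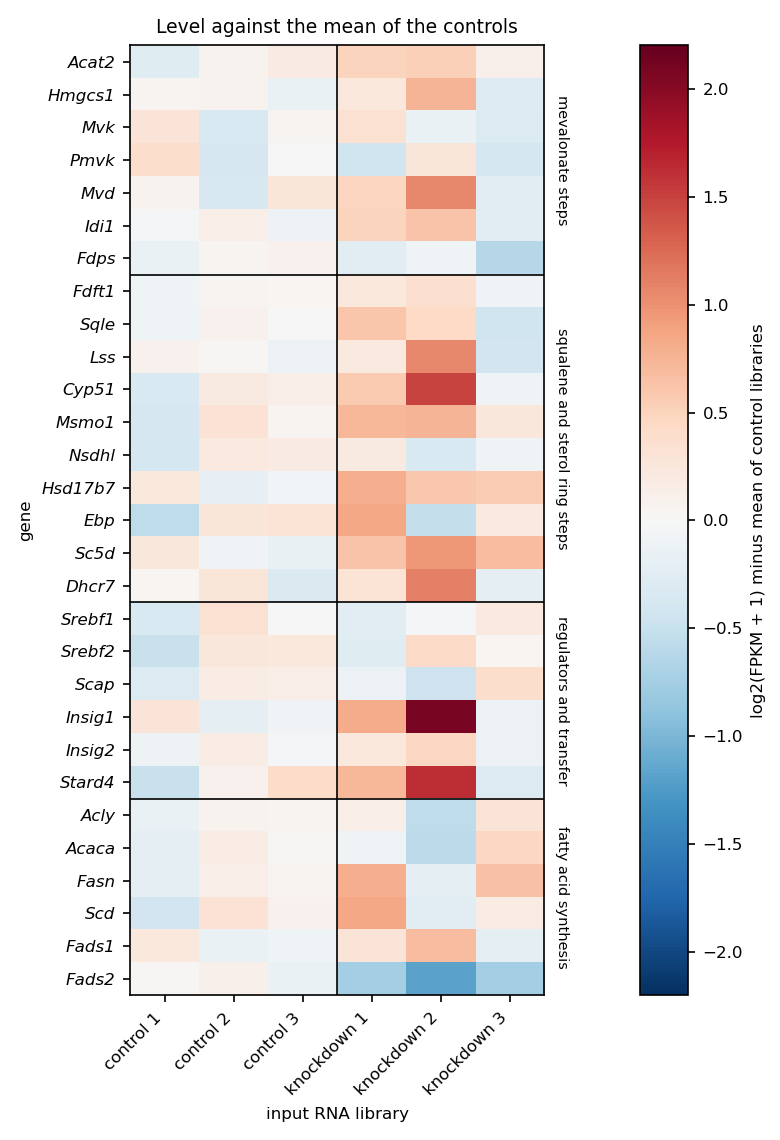
Log2 deviation of each of the 29 tested members from the mean of the 3 controls, on log2(FPKM + 1), for the 6 RNA-seq libraries, ordered by role. Most sterol enzymes are above the control mean in knockdown libraries 1 and 2 and near or below it in library 3, and the fatty acid enzymes Acly and Acaca are lowest in library 2.

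The mevalonate enzymes turn acetyl-CoA into farnesyl diphosphate. Of 7 tested, 4 had a log2 difference above 0 and 3 below, with a median of 0.23, and none had groups that did not overlap. That median was 0.011 without knockdown library 2 and 0.49 without library 3. Their summed level was 54.5, 52.2 and 55.2 in control and 57.4, 71.6 and 39.6 in knockdown, so the controls lay close together and the knockdown libraries lay on both sides of them. Fdps, farnesyl diphosphate synthase and the highest of the group, stood at 19.5, 22.8 and 23.2 in control and 18.3, 20.4 and 13.8 in knockdown (log2 difference -0.31, SE 0.19). Knockdown libraries 1 and 3 were below all controls for it and library 2 was among them. Hmgcs1, the synthase that makes HMG-CoA, stood at 12.01, 12.2 and 10.2 against 13.6, 20.0 and 9.18, higher than every control in libraries 1 and 2 and lower in library 3. Pmvk, phosphomevalonate kinase, stood at 7.005, 3.75 and 5.08 against 3.50, 6.39 and 3.72. Its highest value was a control and its lowest was in knockdown library 1. Acat2, Mvd and Idi1 had log2 differences of 0.37, 0.42 and 0.29, and mevalonate kinase, Mvk, one of -0.04, all with overlapping groups and control values between 2.30 and 5.83.

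The enzymes from squalene onward had a median log2 difference of 0.34, with 9 of 10 tested above 0. The median was 0.17 without knockdown library 2, below the 0.20 of fatty acid synthesis in that setting, 0.076 without control library 1 as well, and 0.67 without knockdown library 3. Their summed level was 80.3, 103 and 93.9 in control and 141, 158 and 100.2 in knockdown, and knockdown library 3 lay within the control range. Sc5d (ENSRNOG00000008305), the desaturase near the end of the route, stood at 14.1, 11.0 and 10.4 in control and 18.8, 23.6 and 19.3 in knockdown. Every knockdown library was above every control, and the means were 11.8 ± 1.98 and 20.5 ± 2.63 (SD, n = 3 each). The log2 difference was 0.75 (SE 0.18), with a limma p of 0.00465 and an adjusted p of 0.273 (0.0468 to 0.797 over 17 alternatives). The value of 0.0468 came with library quality weights, where Sc5d was the 1 member of 29 called and 2.49% of all genes were called. That fit gave the highest weights, 3.80 and 3.57, to control libraries 2 and 3, the most alike pair. Without weights, 0 genes were called both with all libraries (lowest limma adjusted p over all genes 0.155) and with those 2 averaged (0.727). The averaged fit therefore cannot show whether the weighted call rests on that pair. Hsd17b7 (ENSRNOG00000002826), a ketosteroid reductase of the sterol ring, stood at 1.48, 0.877 and 1.04 against 2.70, 2.21 and 2.13, also without overlap. The means were 1.13 ± 0.311 and 2.35 ± 0.311 (SD, n = 3 each), and the values rest on only 67, 27 and 34 fragments in control and 78, 71 and 58 in knockdown. Its log2 difference was 0.66 (SE 0.27; limma p 0.0422, adjusted p 0.387; 0.0953 to 0.831 over 16 alternatives). These are the only members whose knockdown libraries were all above the controls, 2 of 29, where 9.63% of all genes had that pattern. Msmo1 (ENSRNOG00000032297), which removes methyl groups from the sterol ring and was the highest of the group, stood at 21.6, 35.1 and 29.2 against 47.1, 47.8 and 33.7. The groups overlapped, since knockdown library 3 lay below control library 2. The log2 difference was 0.57 (SE 0.23; limma p 0.0437, adjusted p 0.389; 0.183 to 0.798 over 17 alternatives).

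**Figure D2:**
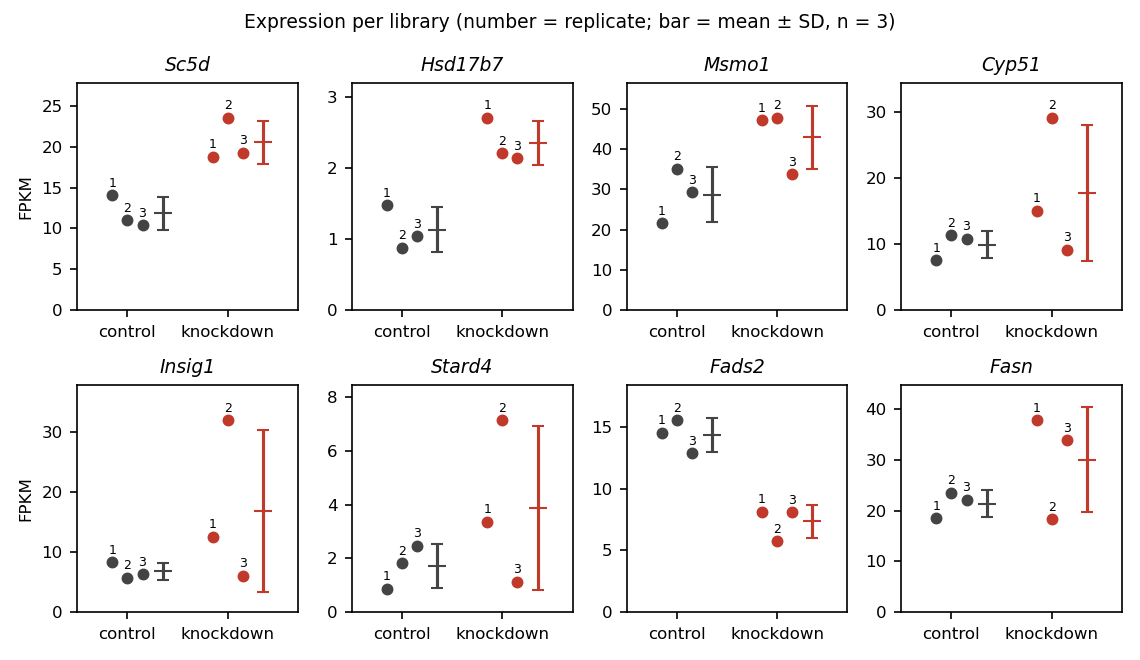
FPKM of 8 members in each of the 6 RNA-seq libraries, with a numbered point for each library and a bar for the group mean ± SD (n = 3). Sc5d and Hsd17b7 are higher and Fads2 is lower in all 3 knockdown libraries, while the high mean of Insig1 in knockdown rests mainly on library 2 at 32.1 FPKM.

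Cyp51, the lanosterol demethylase, stood at 7.57, 11.3 and 10.9 in control and 15.1, 29.2 and 9.16 in knockdown. Its log2 difference of 0.66 (SE 0.39) dropped to 0.25 without knockdown library 2. Sqle, squalene epoxidase, stood at 9.37, 10.9 and 10.1 against 15.9, 14.0 and 7.23. Libraries 1 and 2 were above the controls and library 3 below them. Fdft1, squalene synthase, stood at 9.74, 11.0 and 10.8 against 12.5, 13.6 and 9.82, a log2 difference of 0.16. Dhcr7, the reductase of the last step, stood at 3.54, 4.33 and 2.54 against 4.42, 8.46 and 2.85, with library 3 among the controls. Ebp, the sterol isomerase, stood at 4.21, 8.13 and 8.35 against 12.7, 4.30 and 7.84, so that only library 1 was above the controls. Lanosterol synthase, Lss, had a log2 difference of 0.28, and Nsdhl, a dehydrogenase of the demethylation complex, one of -0.07. Tm7sf2 was between 0.676 and 1.33 in all 6 libraries. Over mevalonate and ring steps together, 14, 12 and 2 of the 17 tested enzymes were above all controls in knockdown libraries 1, 2 and 3.

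**Figure D3:**
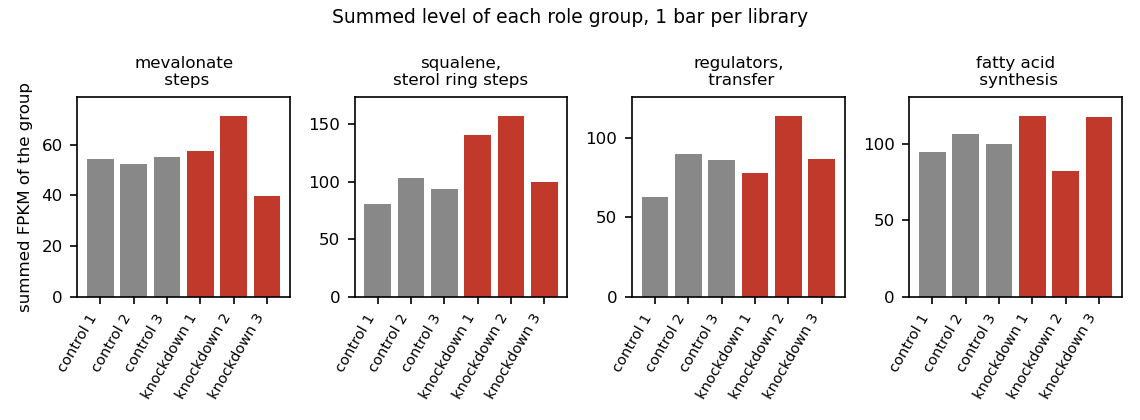
Summed FPKM of the members of each role group in the 6 RNA-seq libraries. For the squalene and sterol ring steps, knockdown libraries 1 and 2 (141 and 158) stand above the controls (80.3 to 103) and library 3 (100.2) lies within them, while for fatty acid synthesis library 2 is the lowest at 82.0.

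Among the regulators, the transcription factors and their escort differed between groups by less than 1 standard error. Srebf2, the sterol factor and the highest of the group, stood at 20.3, 34.6 and 34.1 in control and 23.9, 38.8 and 29.8 in knockdown (log2 difference 0.07, SE 0.27). Srebf1 stood at 8.19, 13.6 and 10.6 against 8.84, 10.2 and 12.5 (-0.02, SE 0.23), and Scap at 19.9, 27.6 and 27.3 against 22.4, 17.7 and 32.4 (-0.07, SE 0.25). For each of the 3 genes the groups overlapped, and the sign of the difference depended on the setting. The feedback gene Insig1 (ENSRNOG00000006859) stood at 8.41, 5.76 and 6.33 against 12.6, 32.1 and 6.11. Knockdown library 1 was above the controls, library 2 far above them, and library 3 among them. Its log2 difference, 0.93 (SE 0.52), had a limma adjusted p of 0.501 (0.126 to 0.847 over 17 alternatives) and was 0.35 without knockdown library 2. Insig2, its relative, stood at 5.09, 6.33 and 5.35 against 6.76, 8.03 and 4.97 (0.19, SE 0.22). Stard4, which carries cholesterol between membranes, stood at 0.877, 1.82 and 2.48 against 3.37, 7.14 and 1.14. It followed the order of Insig1 in knockdown, with library 2 highest and library 3 lowest, and its log2 difference of 0.68 (SE 0.51) was 0.21 without library 2.

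The 6 fatty acid enzymes tested did not share the order of the sterol enzymes. In knockdown library 2, where 12 of 17 sterol enzymes were above all controls and 0 below, 4 of 6 fatty acid enzymes were below all controls and 1 above. Of all genes tested, 36.3% were above and 37.7% below in that library. Of the 14 other SREBP pathway and synthesis genes tested, which include fatty acid genes, 8 were above and 3 below in it. The difference between these role groups was not tested. Fads2 (ENSRNOG00000020440), the delta-6 desaturase that starts the making of long polyunsaturated fatty acids, stood at 14.5, 15.5 and 12.9 in control and 8.14, 5.77 and 8.11 in knockdown. Every knockdown library was below every control, with means of 14.3 ± 1.35 and 7.34 ± 1.36 (SD, n = 3 each), a ratio of 0.513. The log2 difference was -0.89 (SE 0.19), with a limma p of 0.00233 and an adjusted p of 0.257 (0.0553 to 0.797 over 17 alternatives). It was the only member of 29 with that pattern, which 10.9% of all genes had. Fads1, the delta-5 desaturase of the same route, stood at 18.9, 14.3 and 14.7 against 19.5, 25.8 and 13.7, a log2 difference of 0.25 (SE 0.25). The 2 desaturases thus had differences of opposite sign, and only that of Fads2 was larger than the spread between replicates before adjustment.

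Acly, which supplies cytosolic acetyl-CoA and was the highest of the fatty acid group, stood at 31.2, 36.8 and 36.2 in control and 38.2, 23.3 and 42.4 in knockdown. Acaca, acetyl-CoA carboxylase, stood at 10.6, 13.9 and 12.5 against 11.4, 7.86 and 17.2. Both were lowest of all 6 libraries in knockdown library 2 and highest in library 3, and their log2 differences were -0.04 (SE 0.24) and -0.07 (SE 0.28). Fasn, fatty acid synthase, stood at 18.5, 23.5 and 22.1 against 37.8, 18.3 and 33.9. Libraries 1 and 3 were above all controls and library 2 just below them, giving a log2 difference of 0.41 (SE 0.28; limma adjusted p 0.586; 0.113 to 0.843 over 17 alternatives). Scd, a stearoyl-CoA desaturase, was low, at 0.796, 1.97 and 1.56 against 3.30, 1.01 and 1.68. Elovl6 had 1 fragment in control library 1, 1 in knockdown library 3 and 0 in the other 4.

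Other genes around the pathway showed no adjusted call either. Of 10 genes on branches of the mevalonate route, such as prenylation and ubiquinone synthesis, 6 were above 0 and 4 below (median log2 difference 0.19), with 0 at an unadjusted p under 0.05 in the limma fit. The genes with the smallest p were Pdss1 (0.50, SE 0.25) and Rce1 (0.44, SE 0.27) in the higher direction and the farnesyltransferase subunit Fntb (-0.51, SE 0.24) and Dhdds (-0.10, SE 0.16) in the lower. Of 16 genes of sterol uptake, transport and release, 12 were tested, 7 were above 0 and 5 below (median 0.13). Lipa, the lysosomal acid lipase that frees cholesterol from lipoprotein esters, had the lowest value, -1.02 (SE 0.37; limma p 0.0275, adjusted p 0.359), with levels of 25.9, 14.9 and 15.4 against 5.75, 14.8 and 6.84. The groups just failed to overlap, at 14.9 for the lowest control and 14.8 for the highest knockdown library. Npc1, which exports that cholesterol from the lysosome, stood at 0.34 (SE 0.23), and Cyp27a1 at -0.29 (SE 0.32). Of 15 other SREBP pathway and synthesis genes, 14 were tested and 9 were above 0 (median 0.12), 1 of them at an unadjusted p under 0.05. Aacs was at 0.41 (SE 0.23), Me1, malic enzyme, at -0.39 (SE 0.20) and Mbtps1, a protease that releases SREBPs, at -0.14 (SE 0.16). Fatty acid oxidation genes lay the other way, with 1 of 8 tested above 0, 7 below and a median of -0.14. Acadl, an acyl-CoA dehydrogenase, was at -0.35 (SE 0.15) with groups that did not overlap, Hadha at -0.27 (SE 0.21) and Cpt1a at 0.31 (SE 0.20). Groups did not overlap in the higher direction for 2 of 10 branch genes (Pdss1 and Pggt1b), 1 of 12 uptake genes and 2 of 14 other SREBP genes. Of all genes, 9.63% had that pattern. In the lower direction it was 1 of 12 uptake genes and 1 of 8 oxidation genes, against 10.9% of all genes.

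In the ac4C experiment, RNA broken to 100 to 200 nucleotides was precipitated with an antibody to ac4C, and peaks were deposited per sample with the authors' p-value for each. Control lists 1 and 2 held 26881 and 27673 peaks at a single p-value (0.045 and 0.046), which the other 4 lists did not have. Those peaks were set aside here. Without them, 4, 3 and 6 members had a peak in the control lists and 7, 2 and 5 in the knockdown lists. These were 13.8%, 10.3% and 20.7% and then 24.1%, 6.90% and 17.2% of the tested members, where 18.7%, 12.2% and 20.4% and then 18.6%, 15.4% and 15.96% of all tested genes had one. With the shared-p peaks, 15 and 14 members had a peak in control lists 1 and 2, and the median level of the 13 members that had only such peaks in a control list was 3.62 FPKM, against 12.6 for the other 18. Without the shared-p peaks, at least 1 of the 6 lists held a peak for 18 of the 29 tested members (62.1%, where 47.6% of all tested genes had one). Members with a peak had a median level of 12.6 FPKM and those without one 5.32. The part of RNA level in being listed was not tested.

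Most of these peaks were in a single list. Counting only peaks off the shared p, 7 members had peaks in 1 control list and no knockdown list (Hmgcs1, Cyp51, Ebp, Dhcr7, Stard4, Acly and Fasn), and 5 in 1 knockdown list and no control list (Pmvk, Fdft1, Acaca, Scd and Fads1). No member was listed in at least 2 control lists and 0 knockdown lists, a pattern that 3.2% of all tested genes had. The reverse pattern was seen for Sc5d and Fdps, 2 of 29, where 2.42% of all tested genes had it. The p-values are the authors' own and were not compared between lists, which differ in how many peaks they hold.

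Coordinates of peaks are as deposited; rn6 is the only rat build named in the submitters' processing notes, and exon or UTR position is not given here. On Sc5d the peaks were at chr8:46528122-46528272 in knockdown list 1 (authors' p 0.0095), chr8:46527165-46527285 in list 2 (0.0054) and chr8:46527135-46527404 in list 3 (9.3e-05). The peak of list 1 thus lay apart from the other two, which overlapped. Sc5d RNA was itself higher in all 3 knockdown libraries, and whether its level bears on the peaks was not tested. On Fdps the same pair of blocks within chr2:188403766-188404319, 180 nucleotides in all, was listed in knockdown lists 2 (authors' p 1.6e-54) and 3 (1e-132). Fdps RNA was not higher in those libraries, at 20.4 and 13.8 FPKM against 19.5 to 23.2 in control.

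Srebf2 was the member with peaks in the most lists, all 3 control lists and knockdown list 3. The region chr7:123438484-123438603 was a peak in control lists 2 (authors' p 5e-15) and 3 (0.00087), and the peak of knockdown list 3, chr7:123438394-123438603 (7.9e-43), covers it. Control list 1 held a peak at chr7:123438275-123438424 (0.00085), which lay beside the shared region and overlapped the peak of knockdown list 3. Control list 2 held a further one at chr7:123437648-123437827 (2.5e-19). Sqle, Scap and Insig1 were each listed in 1 control and 1 knockdown list at overlapping positions. For Insig1 these were chr4:349231-349380 in control list 3 (0.0015) and chr4:349261-349440 in knockdown list 1 (8.1e-05), for Sqle chr7:99609820-99610059 in control list 3 (8.9e-07) and chr7:99609910-99610029 in knockdown list 1 (0.0054), and for Scap chr8:118628382-118628561 in control list 1 (0.0017) and chr8:118628501-118628651 in knockdown list 3 (0.003). The 13 members with no peak off the shared p in any list were Acat2, Mvk, Mvd, Idi1, Lss, Tm7sf2, Msmo1, Nsdhl, Hsd17b7, Srebf1, Insig2, Elovl6 and Fads2. Thus of the members that differed in RNA level before adjustment, Hsd17b7, Msmo1 and Fads2 had none and Sc5d had peaks in the knockdown lists.

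**Figure D4:**
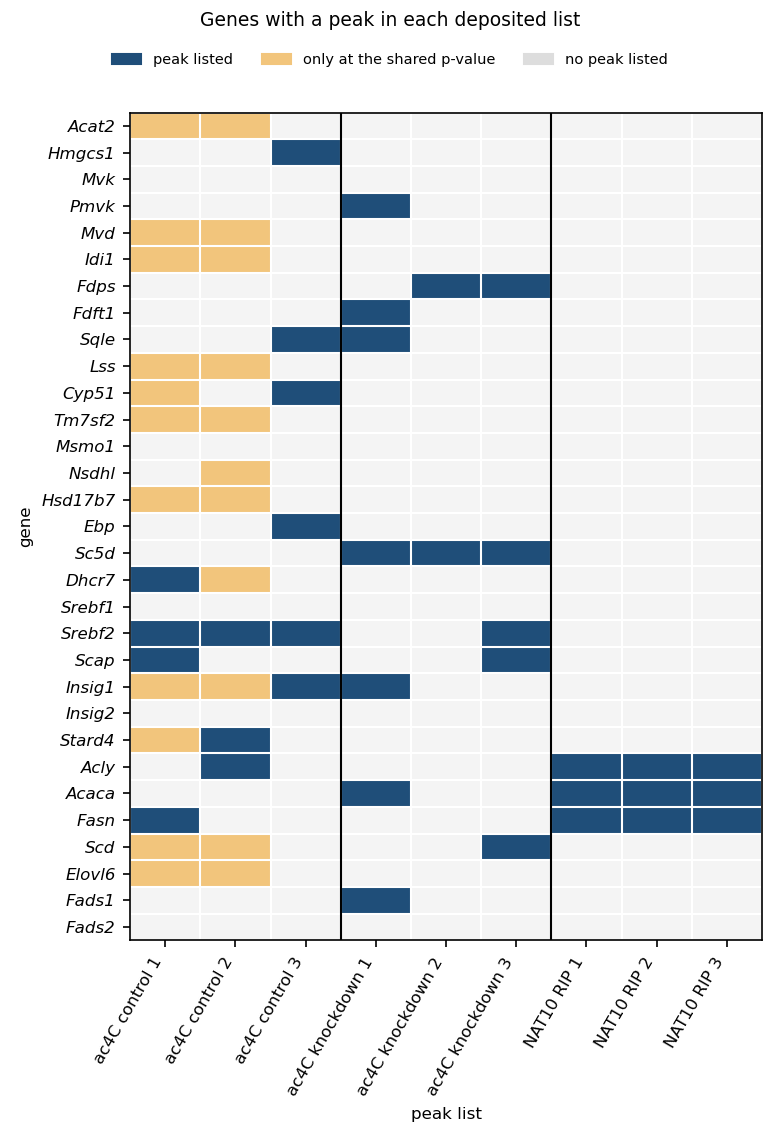
Presence of a peak for each of the 31 members in the 6 ac4C lists and the 3 NAT10 RIP lists, with orange where a control list holds only peaks at its shared p-value. Acly, Acaca and Fasn fill all 3 RIP columns and no other member has a RIP peak, and Sc5d is listed in the 3 knockdown ac4C lists.

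NAT10 RIP recovers RNA bound to the NAT10 protein. The 3 deposited lists held 2268, 1993 and 1773 peaks on 586, 563 and 548 genes, each with the authors' log2 enrichment. Members with a peak were Acly, Acaca and Fasn, the 3 enzymes in sequence from citrate to palmitate, and each was in all 3 lists. That is 3 of 31 members (9.68%), where 2.68% of all tested genes were in all 3 lists, and 0 of the 18 mevalonate and ring enzymes. All 3 have long transcripts of 4327, 6796 and 9139 nucleotides as recovered from the FPKM, against a median of 2983 for the members, 2054 for all tested genes and 5550 for genes in all 3 lists. The part of transcript length and level in being listed was not tested.

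Acaca had the strongest peaks of the 3, with 8, 4 and 2 peaks and log2 enrichments of 0.95 to 1.86, 1.31 to 1.64 and 1.54 to 1.97 in the 3 lists. Its best peak ranked at percentile 90.6, 81.5 and 94.9 of the genes in each list. Acly had 3, 2 and 3 peaks at 0.94 to 1.01, 0.96 to 1.09 and 0.93 to 1.07, near the lower end (percentiles 18.3, 34.6 and 27.2), and Fasn had 2, 7 and 4 peaks at 1.08 to 1.22, 1.05 to 1.28 and 0.97 to 1.41. No member had a peak at a log2 enrichment of 2 or more. Peaks recurred at the same place most often on Fasn, where 4 of 14 merged regions were in all 3 lists. These regions are merged blocks, and a peak can be split into several blocks. The regions chr10:109991689-109991725 and chr10:109991893-109991955 were blocks of 1 split peak in each list. The regions chr10:109993004-109993135 and chr10:109993219-109993261 were blocks of another, so the 4 stand for 2 recurring peaks. On Acaca 1 of 18 merged regions was in all 3 lists, chr10:71638554-71638719, and on Acly 0 of 8 were, with 3 in 2 lists. No RIP peak overlapped an ac4C peak on any member. For the RNA of these 3 genes the groups overlapped.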

How the data were processed

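RNA-seq of input RNA (3 control, 3 knockdown), ac4C immunoprecipitation (3 and 3) and NAT10 RIP (3) were used. Per the submitters' processing notes, the tools were HOMER 4.10.4, DESeq2, featureCounts 1.6.3, HISAT2 2.1.0 and cutadapt 2.5, with no role stated for any. The authors deposited FPKM per gene and library, and per the file headers the values carry Ensembl IDs and gene names. The ac4C lists hold 1 p-value per peak as deposited by the authors, and the RIP tables hold the authors' log2 enrichment and p-value for each peak. The RIP headers also name a score and the −log10 of each p-value, both deposited by the authors and not used here. How the p-values were computed is not stated.

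Whole fragments were recovered from the FPKM for 21401 of 21401 genes above 0 (relative tolerance 2e-08), and for 0 of 500 altered genes. The divisor used by the authors was 92.4% to 96.1% of the library total in the controls and knockdown library 3, and 114% and 115% in knockdown libraries 1 and 2. Genes whose FPKM averaged 1 or more were compared on log2(FPKM + 1) with limma 3.58.1 (R 4.3.3; trended variance, Benjamini-Hochberg), which understates differences of low genes; the script was tested on simulated data. Depth was 6417941 to 12065991 fragments per library. Intervals and counts cover no amplification error. Peaks were assigned by Ensembl ID, and overlap means at least 1 shared base.

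Same-numbered libraries did not clearly deviate together, and the numbers were not used as pairs in the main fit. The members and all lists were chosen with earlier results of these data known. Values in every library are given for Nat10, members whose groups do not overlap or with an unadjusted p under 0.05, the highest member of each role group, the SREBP regulators, and members with a RIP peak or an ac4C peak off the shared p; of other lists, the 2 smallest p-values in each direction are named. Of these, 2 genes are not reported here by name. Alternatives covered scaling, filter, pseudocount, weights, a replicate block, recovered fragments and left-out libraries. 3 of them (scaling to total fragments, 2 libraries left out together, control libraries 2 and 3 averaged) were chosen after seeing the data.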

Additional observations from a re-analysis of the deposited data

How the results depend on the processing

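Over 17 alternatives (16 for the 9 members that the filter of mean FPKM 5 removes, Hsd17b7 among them), 15 of 29 tested members kept the sign of their log2 difference, among them Sc5d, Hsd17b7, Msmo1, Cyp51, Insig1 and Fads2. Library quality weights gave 1 adjusted call among members (Sc5d, 0.77, limma adjusted p 0.0468; 2.49% of all genes were then called), took Nat10 to -0.97 (limma adjusted p 0.0399), and raised the members at an unadjusted p under 0.05 from 3 to 5 (higher, 12% of all genes) and from 1 to 2 (lower, 14.2%). Without weights, the limma adjusted p of Nat10 was 0.227 with all libraries and 0.789 with control libraries 2 and 3 averaged. The count of 3 members higher was 1 with the same FPKM sum (4.36% of all genes) and 1 with those control libraries averaged (2.57%). It was also 1 with the replicate block (500 genes higher, 3.72%, and 676 lower of all tested, 0 after adjustment). Same-numbered libraries deviated with correlations of -0.21, -0.28 and 0.18. With so few libraries per group, this cannot settle whether the numbers pair the samples. With each library left out, 1 to 8 members were higher at an unadjusted p under 0.05 (2.65% to 8.52% of all genes). Groups did not overlap in the higher direction for 2 to 16 members (11.8% to 18.4% of all genes). In the lower direction this held for 1 to 3 members (12.5% to 19.8%). Without control replicate 1 and knockdown replicate 2 together, 2 members were lower at an unadjusted p under 0.05 (8.05% of all genes). The cause of these shifts was not tested.

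With a library left out, the median of all members was 0.10 to 0.35, that of the mevalonate steps 0.011 to 0.49, of the ring steps 0.17 to 0.67, of the regulators -0.023 to 0.23 and of fatty acid synthesis -0.051 to 0.20, against 0.23, 0.23, 0.34, 0.13 and 0.10 with all libraries; that of the branch genes was -0.049 to 0.24, of uptake genes 0.054 to 0.23 and of the other SREBP genes -0.035 to 0.21. Scaling to total fragments moved the median of all genes from -0.01 to 0.12 and gave branch genes 0.34, uptake 0.27, other SREBP genes 0.26 and fatty acid oxidation -0.0034. It also turned Mvk (0.087), Nsdhl (0.056), Srebf1 (0.12), Scap (0.078), Acly (0.11) and Acaca (0.068) to above 0, where the median of all genes then also lay. Other turned signs were Mvk 0.26, Srebf2 -0.31 and Acly 0.029 with weights, Srebf1 0.0027 with the same FPKM sum, Nsdhl 0.026, Srebf1 0.063 and Scap 0.0047 with control libraries averaged, and Mvk 0.15, Lss -0.056, Srebf2 -0.35, Insig2 -0.0036, Stard4 -0.035, Acly 0.14 and Acaca 0.088 without control replicate 1 and knockdown replicate 2 together.

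Left out one at a time, the libraries turned the sign of these members, with ranges of Hmgcs1 -0.031 to 0.49, Mvk -0.23 to 0.096, Pmvk -0.41 to 0.0056, Lss -0.11 to 0.63, Nsdhl -0.27 to 0.058, Ebp -0.16 to 0.53, Srebf1 -0.19 to 0.14, Srebf2 -0.18 to 0.23, Scap -0.29 to 0.12, Acly -0.21 to 0.21, Acaca -0.34 to 0.18 and Scd -0.041 to 0.51.

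Any control ac4C list held a peak for 20 members with all peaks, for 11 without the shared p and for 11 at p under 0.01. Any knockdown list held one for 5 to 11 members. No member was in a RIP list at log2 of at least 2, and the shorter sterol element core was in 7 promoters. Hsd17b7, with 27 to 78 fragments per library, and Elovl6 are limited by depth.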
